A study of Ovis aries with 15 samples.

Results

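The transforming growth factor beta (TGF-beta) superfamily genes of the sheep mammary gland were the subject: the ligands, the proteins that hold TGF-beta latent, the receptors, the SMAD proteins that carry the signal, the secreted antagonists and the ID genes. Members were chosen by symbol alone, from the features of the deposited table whose name was TGFB1 to TGFB3, LTBP1 to LTBP4, an INH, BMP, GDF, ACVR, SMAD or SMURF gene, or a TGF-beta or BMP receptor, follistatin-family, GREM1, NOG or ID gene. The rule uses no measured value, although earlier results of these data were known when the members were chosen. This gave 59 of 24691 features, and SMAD7, ID4 and GDF7 were not analysed here.

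The libraries came from mammary parenchyma of 2-year-old Romney ewes in their first pregnancy, sampled by needle biopsy in late pregnancy, around day 135 of gestation, and again in lactation, around day 15 post partum. RNA was pooled before sequencing, giving 9 late pregnancy and 6 lactating libraries, so the spread between libraries is that between pools of ewes. The labels put 3 ewes in a late pregnancy pool and 2 in a lactation pool, whereas the study's methods state 3 throughout. The ewes differed in how their own dams had been fed from day 21 to day 50 of gestation: ad libitum (HM), at maintenance (MM) or below maintenance (LM) pasture allowance. All these dams then received maintenance feed to day 140, and the ewes themselves were managed together. Each dam group gave 3 pools in late pregnancy and 2 in lactation. The same ewes could contribute at both times, the labels do not say which ewes entered which pool, and the tests treated the libraries as independent.

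TGF-beta and activin ligands bind a type II receptor that recruits and activates a type I receptor, which phosphorylates SMAD2 and SMAD3. BMP ligands and some, not all, GDF ligands act mostly through other type I receptors and SMAD1, SMAD5 and SMAD9, and both branches share SMAD4. In the mammary gland, TGF-beta is known as a brake on ductal and alveolar growth and on milk protein synthesis, and BMP signalling as part of the exchange between epithelium and mesenchyme.

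Counts of reads on exons were used, expressed as CPM, the gene's reads relative to the size of the library. The size was scaled by the trimmed mean of M-values (TMM), which corrects for the large share of lactation reads taken by milk protein genes. That share was 13.7 to 23.4% in late pregnancy and 71.3 to 75.8% in lactation, and the libraries held 6471237 to 16898986 and 9014506 to 24001031 reads counted on exons, or on the whole gene where no transcript was annotated. Without TMM scaling the median log2 change of all 13345 genes tested was -1.94, and every called rise of a member in exon reads except that of FST then became a fall smaller than that median. Changes are given as log2, lactation minus late pregnancy, with the standard error (SE) from edgeR's quasi-likelihood test, and a gene was called when its Benjamini-Hochberg adjusted p over all genes tested was under 0.05. One lactation library, HM pool 1, stood apart with 12.9% of its reads on genes outside exons, against 5.74 to 6.54% in the other lactation libraries and 13.8 to 15.3% in late pregnancy. Without it the members gave the same counts of calls, with SMAD2 lost and TGFB2 added.

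Of the 59 genes, 40 had enough reads to be tested. The call rule was passed by 27 of them (67.5%), and 68.4% of all genes tested were called. Expression was lower in lactation for 17 members (42.5%, against 35.2% of all genes) and higher for 10 (25.0%, against 33.1%). The median log2 change was -0.05 over the 40 members, also with genes at the detection floor set to their bound, and -0.03 over all genes. The values of lactation and late pregnancy libraries did not overlap for 14 members, 8 below and 6 above, which is 35.0% of those tested, against 40.2% of all genes. The members' share of calls was thus close to that of all genes. In this bulk tissue, fewer cells of a type and less RNA per cell cannot be told apart.

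**Figure D1:**
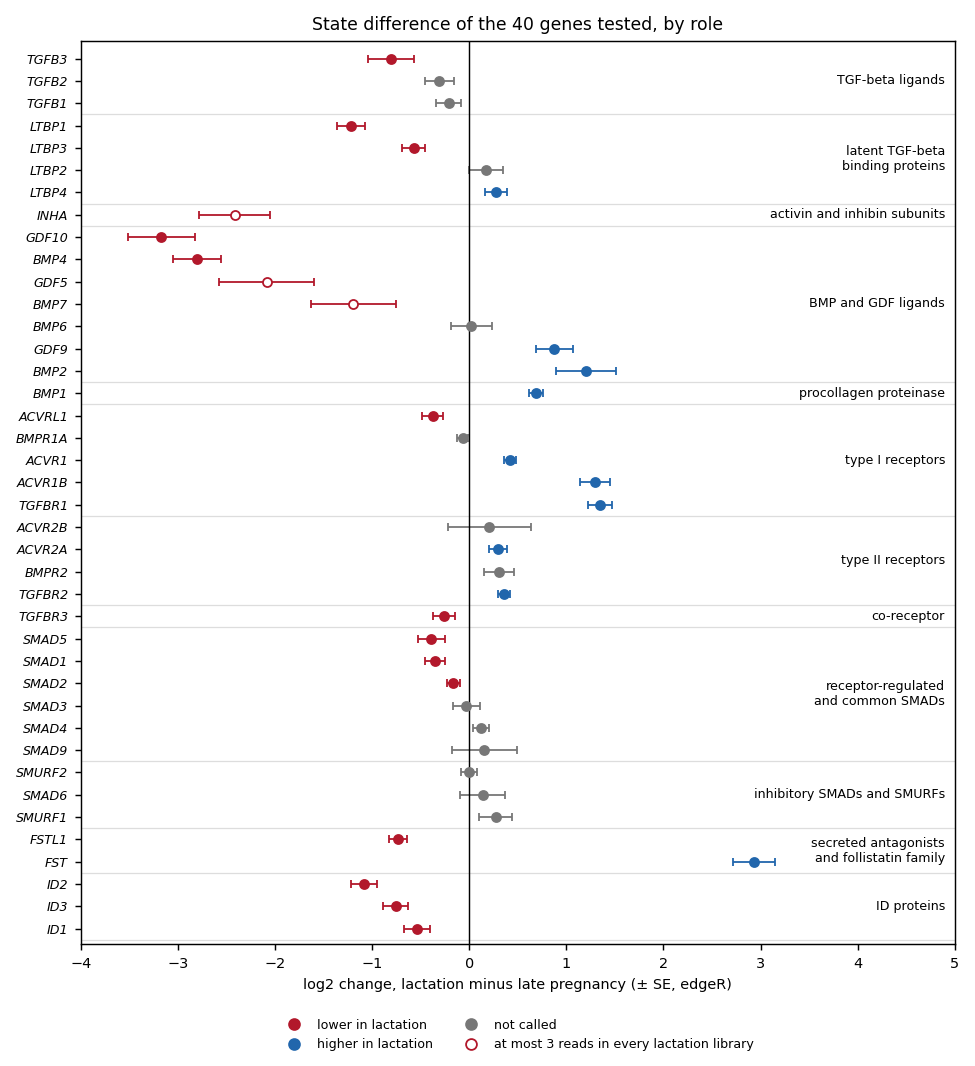
Log2 change from late pregnancy to lactation (x axis, edgeR with TMM scaling, bars ± SE, 9 against 6 libraries) for the 40 genes tested, 1 row each, grouped by role; red points were called lower, blue higher and grey not called, and open points had at most 3 reads in every lactation library. FST lies farthest to the right at 2.93 and GDF10 farthest to the left at -3.17; scaled by library size alone, all blue points except FST move below 0.

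Marker genes of the cell types in a biopsy changed along with the members. Of all genes tested, 35.2% were lower and 33.1% higher in lactation, the shares to set beside the counts of these small lists. All 4 endothelial markers tested were lower in lactation, with a summed level of 150 to 206 CPM in late pregnancy and 89.8 to 132 CPM in lactation. KDR, TIE1, TEK and CLDN5 of that list of 8 were not found by symbol. All 6 T cell markers tested were lower (40.7 to 64.8 against 13.2 to 20.5 CPM), as were 5 of 6 macrophage markers (155 to 203 against 72.6 to 103 CPM). Of 8 fibroblast markers 4 were lower and none higher (443 to 762 against 327 to 495 CPM). Without COL1A1 the fibroblast sums overlapped, at 262 to 389 CPM in late pregnancy and 231 to 339 CPM in lactation. Of 8 luminal epithelial markers 5 were higher and none lower under TMM scaling, and their sum without LALBA, the milk protein among them, was 1479 to 1819 CPM in late pregnancy and 2374 to 2615 CPM in lactation. Myoepithelial markers were mixed, with 2 lower and 3 higher of 7, and their sums overlapped. Pericyte and smooth muscle markers gave 3 lower of 6, and B and plasma cell markers 1 lower and 1 higher of 3. Of 4 adipocyte markers tested 1 was higher, CIDEA, which the milk-secreting epithelium is also known to express. The adipocyte sum without CIDEA was 6.36 to 27.5 CPM in late pregnancy, against 6.85 to 17.1 CPM. No defining marker was at 0 in either state, and the part of these cell types in the members' changes was not tested.

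The 3 TGF-beta ligand genes were expressed at low to moderate levels in both states, and TGFB3 was called lower in lactation. Mean TGFB3, the isoform known from rodents for its induction by milk stasis at weaning, went from 3.91 ± 0.993 CPM to 2.10 ± 0.898 CPM (SD, n = 9 and n = 6). Its libraries ranged from 2.49 to 5.20 CPM in late pregnancy (median 3.80) and 1.36 to 3.83 CPM in lactation (median 1.84). The groups overlapped because 1 lactation library, MM pool 1, reached the late pregnancy range, and the difference passed the test (log2 change -0.81, SE 0.24, adjusted p = 0.00541). TGFB1, the most widely expressed isoform, had 4.09 to 5.47 CPM in late pregnancy (median 4.55) and 3.24 to 5.48 CPM in lactation (median 3.52). TGFB2, an isoform made by mammary epithelium, had 9.61 to 13.9 CPM in late pregnancy (median 12) and 6.28 to 15.2 CPM in lactation (median 9.16). Neither was called, with log2 changes of -0.21 (adjusted p = 0.193) and -0.31 (adjusted p = 0.0705). Leaving out MM pool 1 of lactation brought TGFB1 past the threshold (log2 change -0.36, adjusted p = 0.0200), and leaving out HM pool 1 or HM pool 2 of lactation brought TGFB2 past it (-0.44 and -0.39, adjusted p = 0.00698 and 0.0325). Upper-quartile scaling and a filter of at least 10 reads in every library also brought both past it (TGFB1 -0.36 and -0.29, adjusted p = 0.0163 and 0.0437, and TGFB2 -0.46 and -0.39, adjusted p = 0.00941 and 0.0232). TGFB3 was not called in the lane 7 libraries alone (-0.42, adjusted p = 0.296). The isoforms were not compared with each other.

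The latent TGF-beta binding proteins anchor the inactive ligand in the extracellular matrix, and their 4 genes did not move together. LTBP1 (chromosome 3, 90487561 to 90763786) had 56 to 96.7 CPM in late pregnancy (median 74.1) and 26.4 to 45.8 CPM in lactation (median 30.4). Every lactation library was below every late pregnancy library, and LTBP1 fell 2.32-fold (log2 change -1.22, SE 0.14, adjusted p = 2.3e-07). LTBP3 had 7.47 to 12.1 CPM in late pregnancy (median 8.86) and 5.10 to 7.22 CPM in lactation (median 5.68), again without overlap, and was lower by 1.49-fold (log2 change -0.57, SE 0.12, adjusted p = 2.0e-04). LTBP4, which binds TGF-beta1 and takes part in elastic fibre assembly, had 19.3 to 30.5 CPM in late pregnancy (median 26.3) and 22.5 to 35.8 CPM in lactation (median 31.9). The LTBP4 groups overlapped, the rise under TMM scaling was 1.21-fold (log2 change 0.28, SE 0.11, adjusted p = 0.0315), and the call held in 8 of the 15 fits that left out 1 library. It was lost, at adjusted p = 0.0501 to 0.0987, without late pregnancy HM pool 1, LM pool 1 or LM pool 2 or any of the 4 LM and MM lactation pools. LTBP2, which does not bind latent TGF-beta, was at 4.01 to 7.40 CPM in late pregnancy (median 5.30) and 3.62 to 8.88 CPM in lactation (median 5.53) and was not called (log2 change 0.17, SE 0.17, adjusted p = 0.386).

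Activin is a dimer of inhibin beta subunits, whereas inhibin, which opposes it, pairs a beta subunit with the alpha subunit encoded by INHA. INHA (chromosome 2, 220476722 to 220479717) had 0.743 to 1.25 CPM in late pregnancy (median 1.10) and 0 to 0.338 CPM in lactation (median 0.163). All lactation libraries were below the lowest late pregnancy library and none held more than 3 reads. INHA was at least 2.22-fold lower in lactation, with 3 reads per library as the floor (fitted log2 change -2.42, SE 0.36, adjusted p = 6.9e-06). The activin beta subunit genes had too few reads to test, with at most 15 reads of INHBA and 14 of INHBB in any library. Activin A and B subunit transcripts were thus near the limit of detection in both states, while the gene of their antagonist FST, described below, was not.

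Among the BMP and GDF ligands, BMP4 and GDF10 were the abundant members in late pregnancy and were low in lactation. BMP4, a mesenchymal signal that patterns the early mammary rudiment and binds BMPR1A, lies on chromosome 7, 63452824 to 63456162. Its libraries ranged from 8.02 to 17.1 CPM in late pregnancy (median 13.4) and 0.879 to 2.37 CPM in lactation (median 1.71), with a wide gap between the states. Mean BMP4 went from 12 ± 3.32 CPM to 1.61 ± 0.595 CPM, a 6.98-fold fall (log2 change -2.80, SE 0.25, adjusted p = 4.2e-09). GDF10, also known as BMP3b, lies on chromosome 25, 41848675 to 41861586. GDF10 had 5.81 to 16.3 CPM in late pregnancy (median 12.4) and 0.113 to 2.31 CPM in lactation (median 1.22), and the groups did not overlap. Mean GDF10 went from 11.1 ± 3.55 CPM to 1.26 ± 0.750 CPM, a 9.0-fold fall (log2 change -3.17, SE 0.35, adjusted p = 9.7e-08). These were the largest falls among members with more than 3 reads in some lactation library.

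The other members among the BMP and GDF ligands were scarce. MSTN, a ligand that the symbol rule did not take in, was not. It had 9.32 to 22.4 CPM in late pregnancy (median 12.9) and 4.09 to 15.8 CPM in lactation (median 11.3). MSTN was not called (log2 change -0.49, SE 0.27, adjusted p = 0.111). GDF5, best known from joint development, had 0.296 to 0.904 CPM in late pregnancy (median 0.570) and 0 to 0.338 CPM in lactation (median 0.0678). It was at least 1.31-fold lower by the same floor (fitted log2 change -2.08, SE 0.49, adjusted p = 8.7e-04), although 1 lactation library reached the late pregnancy range. BMP7, a ligand of kidney and bone development, had 0.222 to 0.823 CPM in late pregnancy (median 0.532) and 0 to 0.407 CPM in lactation (median 0.183). BMP7 was at least 1.05-fold lower (fitted log2 change -1.19, SE 0.43, adjusted p = 0.0203), and it was called in 8 of the 9 fits without 1 library that could test it, the exception being the fit without MM pool 1 of lactation (log2 change -1.12, adjusted p = 0.0552). The opposite direction was seen in BMP2 and GDF9. BMP2, a bone-inducing ligand closely related to BMP4, had 0.248 to 0.887 CPM in late pregnancy (median 0.470) and 0.407 to 1.69 CPM in lactation (median 1.27). The BMP2 groups overlapped, the rise under TMM scaling was 2.31-fold (log2 change 1.21, SE 0.31, adjusted p = 0.00176), and BMP2 had enough reads to test, and was called, in 8 of the 15 fits that left out 1 library. GDF9, an oocyte factor of the ovary, had 1.25 to 1.70 CPM in late pregnancy (median 1.48) and 1.52 to 4.18 CPM in lactation (median 2.38). GDF9 overlapped between states and rose 1.84-fold under TMM scaling (log2 change 0.88, SE 0.19, adjusted p = 4.0e-04), while BMP6, a regulator of iron balance, was not called (log2 change 0.02, SE 0.21, adjusted p = 0.932).

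Of the 17 BMP and GDF ligand genes, 10 were not tested. BMP10 and BMP15 had no reads in any library, and BMP3, GDF3 and GDF6 had at most 3. BMP5, GDF1, GDF11 and GDF15 had at most 12 reads in any library. GDF2, which encodes a circulating ligand of ACVRL1 made by the liver, had 3 to 36 reads in the late pregnancy libraries and 0 in each lactation library. No fold change is given for GDF2, since its late pregnancy mean does not exceed the lactation floor of 3 reads per library.

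BMP1 carries the family name but encodes a metalloproteinase, which trims procollagens and cleaves the BMP antagonist chordin. BMP1 had 19.2 to 26.1 CPM in late pregnancy (median 24.7) and 34.1 to 45.8 CPM in lactation (median 38.7). All lactation libraries were above all late pregnancy libraries, and BMP1 rose 1.61-fold (log2 change 0.69, SE 0.07, adjusted p = 5.4e-08), a rise that was below 0 without TMM scaling.

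**Figure D2:**
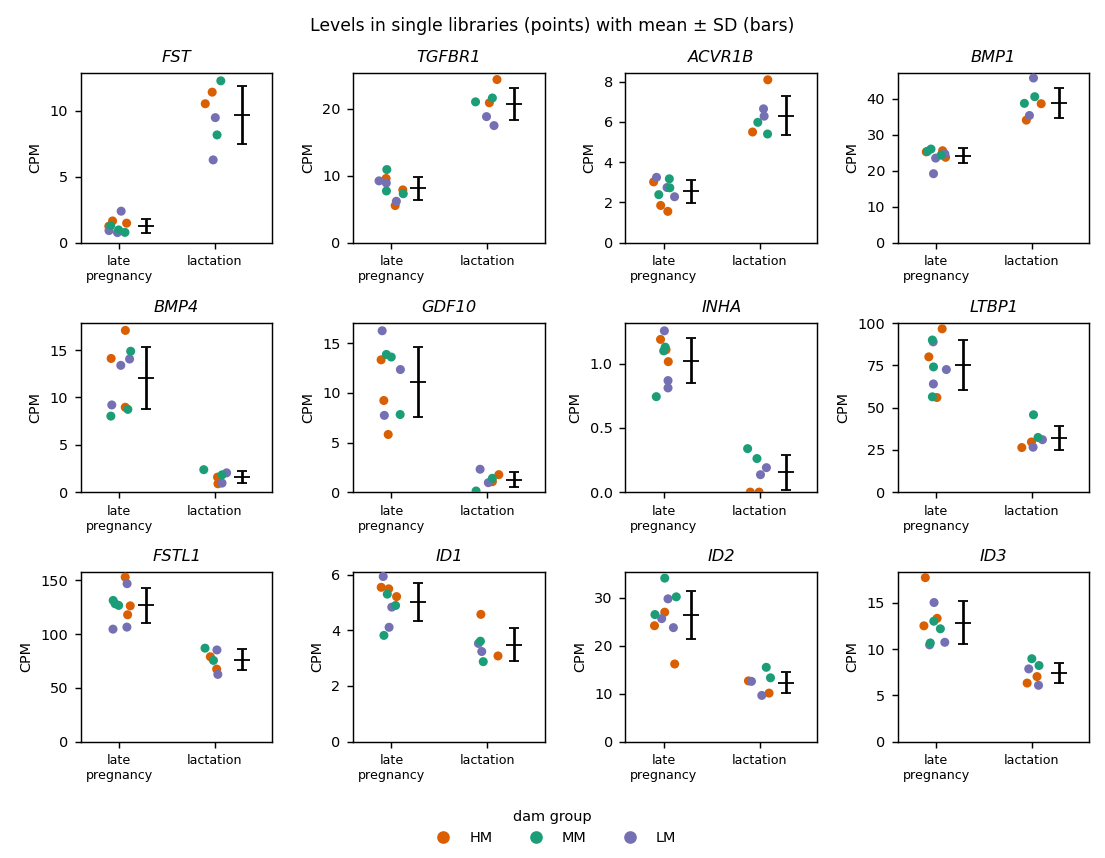
Level of 12 genes (y axis, TMM-scaled CPM from 0) in each of 9 late pregnancy and 6 lactation libraries, coloured by dam group (HM, MM, LM), with black bars for mean ± SD. FST, TGFBR1, ACVR1B and BMP1 are higher in all 6 lactation libraries, and BMP4, GDF10, INHA, LTBP1, FSTL1, ID2 and ID3 lower in all 6, whereas ID1 overlaps; without TMM scaling the fitted rises of TGFBR1, ACVR1B and BMP1 fall below 0.

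Type I receptors of the TGF-beta and activin branch rose. TGFBR1, the type I receptor for TGF-beta, lies on chromosome 2, 48390504 to 48456779 and had 5.54 to 10.9 CPM in late pregnancy (median 7.89) and 17.5 to 24.4 CPM in lactation (median 21). Mean TGFBR1 went from 8.15 ± 1.70 CPM to 20.7 ± 2.38 CPM, and the lowest lactation library exceeded the highest late pregnancy library (log2 change 1.35, SE 0.12, adjusted p = 6.2e-09). ACVR1B, the type I receptor for activin, lies on chromosome 3, 134169941 to 134190218 and had 1.55 to 3.24 CPM in late pregnancy (median 2.72) and 5.39 to 8.09 CPM in lactation (median 6.13). Mean ACVR1B went from 2.55 ± 0.585 CPM to 6.31 ± 0.989 CPM, again without overlap (log2 change 1.30, SE 0.16, adjusted p = 3.9e-07). TGFBR1 and ACVR1B rose 2.55-fold and 2.45-fold with TMM scaling, and were at -0.56 and -0.62 on the log2 scale when libraries were scaled by size alone, both above the median of all genes.

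Receptors of the BMP branch changed less. ACVR1, a type I receptor for BMPs, had 13.4 to 15.6 CPM in late pregnancy (median 14.5) and 18 to 21.3 CPM in lactation (median 19.6). The ACVR1 groups were separate and close together, with a rise of 1.33-fold under TMM scaling (log2 change 0.42, SE 0.06, adjusted p = 4.8e-06). ACVRL1, an endothelial type I receptor, had 7.11 to 10.8 CPM in late pregnancy (median 9.04) and 5.80 to 8.0 CPM in lactation (median 7.04), with overlap, and was lower by 1.29-fold (log2 change -0.37, SE 0.11, adjusted p = 0.00483). The 4 endothelial markers tested were lower together with ACVRL1, and their part in this fall was not tested. ENG, from the list of co-receptors given below, was not called. It had 23.7 to 38.6 CPM in late pregnancy and 28.2 to 40.4 CPM in lactation. BMPR1A, the main type I receptor for BMP4, had 45.1 to 51.8 CPM in late pregnancy (median 47) and 41.7 to 49.5 CPM in lactation (median 45.5) and was not called (log2 change -0.07, SE 0.05, adjusted p = 0.288). ACVR1C and BMPR1B were not tested, with at most 2 and 5 reads in any library.

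The type II receptors were steadier. TGFBR2, the type II receptor for TGF-beta, had 23.7 to 30.0 CPM in late pregnancy (median 28.2) and 30.5 to 39.1 CPM in lactation (median 35.9). The TGFBR2 states did not overlap and the rise under TMM scaling was 1.28-fold (log2 change 0.36, SE 0.06, adjusted p = 3.8e-05). ACVR2A, which binds activins and several BMPs, had 6.95 to 9.32 CPM in late pregnancy (median 7.53) and 8.91 to 11 CPM in lactation (median 9.70), with overlap and a 1.23-fold rise under TMM scaling (log2 change 0.30, SE 0.09, adjusted p = 0.00717). ACVR2A was not called with upper-quartile scaling (log2 change 0.15, adjusted p = 0.162). BMPR2, the type II receptor for BMPs, and ACVR2B, a second activin receptor, were not called, at log2 changes of 0.31 (adjusted p = 0.0775) and 0.21 (adjusted p = 0.680). BMPR2 passed the threshold without LM pool 2 of lactation (log2 change 0.36, adjusted p = 0.0498). TGFBR3, or betaglycan, presents TGF-beta2 and inhibin to their receptors and had 67.2 to 115 CPM in late pregnancy (median 96.2) and 63.7 to 94 CPM in lactation (median 77.4). TGFBR3 overlapped between states and was just past the threshold (log2 change -0.26, SE 0.11, adjusted p = 0.0496), a call that held in 5 of the 15 fits that left out 1 library, those without late pregnancy HM pool 3, LM pool 1 or MM pool 1 or lactation HM pool 1 or MM pool 2. In the other 10 fits the log2 change of TGFBR3 was -0.27 to -0.20 and the adjusted p 0.0559 to 0.133. Under TMM scaling both TGFBR1 and TGFBR2 were thus higher, while the co-receptor gene was lower by a small margin.

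Levels of different genes were compared per kilobase of annotated exon (CPM per kb, mean ± SD). TGFBR3 and FSTL1 stood highest in late pregnancy. TGFBR3 was at 36 ± 6.33 in late pregnancy and 30.1 ± 4.38 in lactation, and FSTL1 at 35.9 ± 4.58 in late pregnancy and 21.5 ± 2.74 in lactation, so these neighbours in late pregnancy lay within their spread. TGFBR2 was at 16.8 ± 1.11 in late pregnancy and 21.5 ± 1.86 in lactation. TGFBR1 was at 3.98 ± 0.833 in late pregnancy and 10.1 ± 1.16 in lactation, and FST was at 1.23 ± 0.502 in late pregnancy and 9.38 ± 2.14 in lactation. In lactation TGFBR2 and FSTL1 differed by less than their spread, as did TGFBR1 and FST, and the former pair stood above the latter. ACVR1B reached 1.63 ± 0.374 in late pregnancy and 4.04 ± 0.632 in lactation, and BMP4 9.13 ± 2.52 in late pregnancy and 1.22 ± 0.451 in lactation.

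The SMAD genes moved little. SMAD1 and SMAD5, which carry BMP signals, had lower values in lactation with overlapping groups. SMAD1 had 8.07 to 12.7 CPM in late pregnancy (median 9.80) and 6.85 to 8.35 CPM in lactation (median 8.0), a 1.27-fold difference (log2 change -0.35, SE 0.10, adjusted p = 0.00516). SMAD5 had 8.79 to 15.6 CPM in late pregnancy (median 10.4) and 6.92 to 11.2 CPM in lactation (median 8.45), a 1.31-fold difference (log2 change -0.39, SE 0.14, adjusted p = 0.0180) that was called in 13 of the 15 fits that left out 1 library, and not without lactation LM pool 1 or MM pool 1 (log2 change -0.33 and -0.34, adjusted p = 0.0531 and 0.0556). SMAD2, which carries TGF-beta and activin signals, had 17.5 to 22.7 CPM in late pregnancy (median 21.9) and 17.4 to 20.8 CPM in lactation (median 19). SMAD2 differed by 1.12-fold (log2 change -0.16, SE 0.07, adjusted p = 0.0426) and kept its call in 4 of those 15 fits, without late pregnancy HM pool 1, HM pool 3 or LM pool 1 or lactation HM pool 2. In the other 11 fits the log2 change of SMAD2 was -0.17 to -0.14 and the adjusted p 0.0573 to 0.0911. SMAD3, the partner of SMAD2, the shared SMAD4 and the BMP-activated SMAD9 were not called, with log2 changes of -0.03, 0.13 and 0.15. The inhibitory SMAD6 and the ubiquitin ligases SMURF1 and SMURF2, which mark receptors and SMADs for degradation, were not called either, at 0.14, 0.27 and 0.00. For SMURF2, whose libraries had 15.4 to 19.6 CPM in late pregnancy (median 16.9) and 13.9 to 19.8 CPM in lactation (median 17.5), the SE of 0.08 bounds the change more tightly than for SMAD9, whose SE was 0.33.

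Follistatin had the largest rise among the 40 genes tested. FST, a secreted protein that binds and neutralizes activins, lies on chromosome 16, 25630860 to 25636030. FST had 0.760 to 2.39 CPM in late pregnancy (median 1.25) and 6.28 to 12.3 CPM in lactation (median 10.0). Every lactation library exceeded every late pregnancy library by a wide margin, in all 3 dam groups. Mean FST went from 1.27 ± 0.519 CPM to 9.70 ± 2.21 CPM, a 7.64-fold rise under TMM scaling (log2 change 2.93, SE 0.22, adjusted p = 2.9e-10). When libraries were scaled by size alone, the log2 change of FST was 1.04, smaller but still a rise. FSTL1, a secreted glycoprotein of connective tissue with a follistatin-like domain, moved the other way. FSTL1 had 105 to 153 CPM in late pregnancy (median 127) and 62.5 to 86.9 CPM in lactation (median 77.2), without overlap, and fell 1.66-fold (log2 change -0.73, SE 0.09, adjusted p = 5.3e-07). FSTL1 fell together with 4 of 8 fibroblast markers, and their part in it was not tested.

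The other antagonists among the members were scarce. GREM1, a BMP antagonist of connective tissue, had at most 17 reads in a library, FSTL3, a relative of FST, at most 10, and NOG, which encodes noggin, at most 2. FSTL4 had at most 3 reads on exons and FSTL5 none. None of these was tested.

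The ID genes encode inhibitors of basic helix-loop-helix factors and are widely used as readouts of BMP signalling through SMAD1 and SMAD5. All 3 fell. ID2 had 16.2 to 34.1 CPM in late pregnancy (median 26.5) and 9.63 to 15.5 CPM in lactation (median 12.6), with no overlap and a 2.12-fold fall (log2 change -1.08, SE 0.14, adjusted p = 8.2e-07). Of the reads on ID2, 91.1% were placed uniquely, and reads that also match other loci were counted by the authors' software. ID3 had 10.5 to 17.7 CPM in late pregnancy (median 12.5) and 6.09 to 8.96 CPM in lactation (median 7.45), with no overlap and a 1.69-fold fall (log2 change -0.76, SE 0.13, adjusted p = 3.6e-05). ID1 had 3.81 to 5.93 CPM in late pregnancy (median 5.21) and 2.87 to 4.57 CPM in lactation (median 3.38), with overlapping groups and a 1.45-fold fall (log2 change -0.54, SE 0.13, adjusted p = 0.00153). The 4 endothelial markers tested fell in the same libraries, and their part in the fall of the ID genes was not tested.

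Reads on a gene outside its annotated exons, called intron reads here, gave another measure from the same libraries, which includes unspliced RNA and any exon missing from the annotation. Enough intron reads were present for 30 members, of which 10 were lower and 8 higher in lactation, where 29.0% of all 10344 genes tested were lower and 29.0% higher. The members' median was -0.08 and that of all genes -0.01. Of 27 members called on exons, 19 could be tested on introns, and 14 of these were called there, all 14 in the same direction. Not called on introns were LTBP3 (log2 change -0.01), ACVR1 (0.31), ACVRL1 (-0.495), TGFBR2 (0.13) and SMAD2 (0.06), at adjusted p = 0.0772 to 0.988 in the same test. The intron change of SMAD2 had the opposite sign to its exon change.

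Intron reads of BMP4 fell by about as much as its exon reads (log2 change -2.82, SE 0.50, adjusted p = 4.2e-05). Those of INHA, FSTL1 and LTBP1 were lower as well, at -3.89, -0.81 and -0.46. The lactation libraries held 0 to 4 intron reads of BMP4 and 0 to 1 of INHA. The fitted size of the BMP4 fall thus rests on few reads, and that of INHA has only a lower bound. Intron reads of FST rose (log2 change 2.27, SE 0.30, adjusted p = 5.9e-07), with no overlap between states. ACVR1B (log2 change 1.51, SE 0.18, adjusted p = 1.3e-07), BMP1 (log2 change 0.85, SE 0.09, adjusted p = 9.5e-09) and TGFBR1 (log2 change 0.84, SE 0.13, adjusted p = 4.5e-06) rose in both measures under TMM scaling. For TGFBR1 and LTBP1 the exon change was the larger, at 1.35 and -1.22.

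In BMPR1A the measures gave different calls. Its exon reads did not differ beyond the test's threshold, with a log2 change of -0.07, while its intron reads were lower in every lactation library (log2 change -0.86, SE 0.10, adjusted p = 4.1e-08). BMPR1A had 763 to 2423 intron reads per library in late pregnancy and 200 to 538 in the lactation libraries. The intron change was -0.83 when HM pool 1 was left out. The exon reads of BMPR1A passed the threshold, lower in lactation, with upper-quartile scaling (-0.22, adjusted p = 0.00177), the filter of at least 10 reads in every library (-0.15, adjusted p = 0.0180) and limma (-0.13, adjusted p = 0.0289), so the difference in calls depends on the processing. TGFBR3 showed a smaller version of the same pattern, with -0.26 on exons and -0.73 on introns, also without overlap on introns. SMAD4 had opposite signs, 0.13 on exons, not called, and -0.22 on introns (adjusted p = 0.0453). The difference between exon and intron changes was not itself tested.

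**Figure D3:**
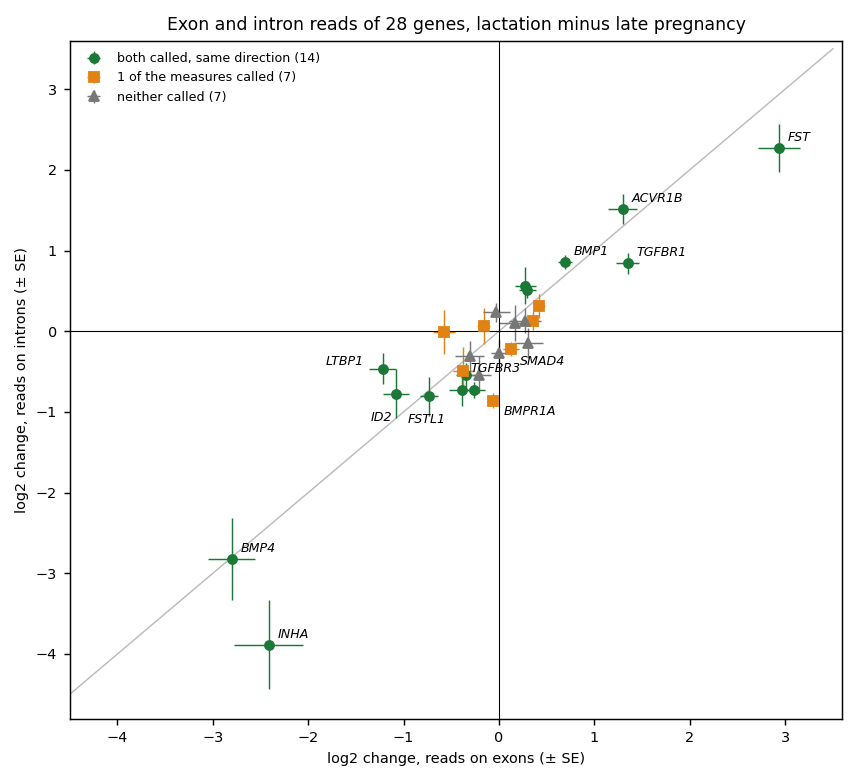
Log2 change in exon reads (x axis) against intron reads (y axis) for the 28 members tested on both, with ± SE bars and the line of equal change; green circles were called on both, orange squares on 1 and grey triangles on neither. FST and ACVR1B lie at the upper right, BMP4 and INHA at the lower left, and BMPR1A directly below 0 on the exon axis at -0.86; scaled by library size alone the changes shift downward and FST stays above 0 on exons.

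The dams' feeding left no called difference among the members. In the 9 late pregnancy libraries none of the 13345 genes was called between HM, MM and LM (0.0%), with 552 genes, or 4.14%, at an unadjusted p under 0.05. A likelihood ratio test in DESeq2 called 20 genes, none of them a member, and leaving out LM pool 1 gave 1 gene in edgeR, again no member. ACVRL1 had the smallest unadjusted p of the members, 0.0401 (edgeR, adjusted p = 1.00). ACVRL1 was at 9.04 to 10.8 CPM in HM, 8.54 to 9.71 CPM in MM and 7.11 to 8.53 CPM in LM pools, and the LM range lay just below the MM range.

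Whether the change into lactation differed between dam groups was tested as an interaction over all 15 libraries. No gene was called (0.0%), with 876 genes, or 6.56%, at an unadjusted p under 0.05, and DESeq2 called 19 genes, none a member. The smallest adjusted p of a member was 0.736, for TGFB2, with an unadjusted p of 0.00874. TGFB2 was at 12.5 and 15.2 CPM in the HM lactation pools, against 6.88 and 9.92 CPM in MM and 6.28 and 8.41 CPM in LM. In late pregnancy the TGFB2 ranges overlapped, at 9.61 to 13.5 CPM in HM, 11.3 to 13.9 in MM and 10.4 to 12.7 in LM. ACVRL1 and LTBP2 had unadjusted interaction p values of 0.0424 and 0.0484 (edgeR, adjusted 0.741 and 0.749). None of these differences passed the adjustment.

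Genes of the pathway outside the family were read from lists of known biology. Each list's counts stand beside shares of 35.2% lower and 33.1% higher over all genes tested. Among 19 TGF-beta response genes tested, 12 were lower in lactation and 1 was higher. Their median log2 change was -0.48 against -0.03 for all genes. COL1A1, the main collagen of connective tissue, went from 283 ± 79.4 CPM to 108 ± 27.6 CPM (log2 change -1.39, SE 0.18, adjusted p = 1.4e-06). PMEPA1, a TGF-beta target that also damps SMAD signalling, went from 1.82 ± 0.364 CPM to 0.610 ± 0.161 CPM (log2 change -1.46, SE 0.22, adjusted p = 8.6e-06). LOX, which crosslinks collagen and elastin, went from 16.6 ± 3.51 CPM to 6.57 ± 2.14 CPM (log2 change -1.30, SE 0.18, adjusted p = 2.9e-06), and none of these 3 genes overlapped between states. The rise was in TAGLN, a smooth muscle and myoepithelial actin-binding protein, from 120.0 ± 12.2 CPM to 164 ± 30.0 CPM with TMM scaling (log2 change 0.45, SE 0.09, adjusted p = 2.8e-04). COL1A1 and POSTN of this list stand also in the fibroblast list, and ACTA2 in the myoepithelial list.

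Of 6 BMP response genes tested 3 fell and none rose, and the median was -0.63. HES1, a transcriptional repressor shared with Notch signalling, went from 13 ± 1.77 CPM to 3.49 ± 0.922 CPM without overlap (log2 change -1.88, SE 0.14, adjusted p = 4.6e-10). HEY1 and GATA3, the latter a luminal transcription factor, were lower with overlap, at -0.67 (adjusted p = 0.0119) and -0.59 (adjusted p = 0.00134).

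Of 15 tested genes for other ligands and for TGF-beta latency and activation, 10 fell, 1 rose and the median was -0.52. The falls include DCN and FBN1, which stand also in the fibroblast list, and THBS1, counted among the TGF-beta response genes as well. FBN2, a microfibril protein to which latent complexes attach, went from 13.3 ± 6.06 CPM to 1.41 ± 0.439 CPM (log2 change -3.12, SE 0.37, adjusted p = 2.8e-07). ITGB8, an integrin subunit that activates latent TGF-beta, went from 2.44 ± 0.738 CPM to 0.610 ± 0.323 CPM (log2 change -1.94, SE 0.30, adjusted p = 1.1e-05), and LRRC32, which displays latent TGF-beta on the cell surface, from 2.46 ± 0.563 CPM to 0.794 ± 0.256 CPM (log2 change -1.53, SE 0.24, adjusted p = 9.9e-06). All 3 were separate between states and were lower, as LTBP1 was. ITGAV, the alpha partner of ITGB8 and other integrins, rose from 23 ± 3.37 CPM to 35.4 ± 7.86 CPM with TMM scaling (log2 change 0.61, SE 0.11, adjusted p = 8.1e-05).

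Of 12 other antagonists of the ligands tested, which include secreted, membrane and protease genes, 8 were lower, 1 was higher, and the median was -0.68. SOSTDC1, an antagonist of BMP and Wnt ligands, had 21.2 to 35.3 CPM in late pregnancy (median 28.7) and 1.98 to 4.0 CPM in lactation (median 2.38). The SOSTDC1 groups were far apart, a 10.7-fold fall (log2 change -3.41, SE 0.17, adjusted p = 5.5e-13). CHRDL2 went from 48.3 ± 14.2 CPM to 9.36 ± 2.03 CPM (log2 change -2.39, SE 0.19, adjusted p = 1.2e-09) and CHRD, which encodes the BMP-binding chordin, from 1.71 ± 0.306 CPM to 0.403 ± 0.439 CPM (log2 change -1.80, SE 0.37, adjusted p = 2.3e-04), both without overlap. KCP, a chordin-like protein known to enhance BMP signalling, rose from 1.89 ± 0.678 CPM to 3.07 ± 0.947 CPM with TMM scaling (log2 change 0.68, SE 0.26, adjusted p = 0.0247). KCP was not called without lactation HM pool 2 (0.53, adjusted p = 0.0879) or LM pool 1 (0.65, adjusted p = 0.0522).

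Co-receptors and receptor partners gave 1 lower and 2 higher of 5 tested, with a median of 0.17 under TMM scaling. FKBP1A, which binds type I receptors and holds them inactive, went from 113 ± 12.1 CPM to 193 ± 15.6 CPM (log2 change 0.77, SE 0.07, adjusted p = 6.3e-09). NEO1, a receptor for the RGM proteins, went from 13 ± 1.81 CPM to 19.8 ± 2.87 CPM (log2 change 0.61, SE 0.10, adjusted p = 2.4e-05), whereas RGMA, a BMP co-receptor, was lower at -0.48 (adjusted p = 0.00301). FKBP1A and NEO1 rose with TGFBR1 and ACVR1B under TMM scaling, without overlap between states.

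Intracellular partners and regulators of SMADs gave 10 higher and 4 lower of 22 tested, against 33.1% higher and 35.2% lower of all genes. The median of the list was 0.16 under TMM scaling. PPM1A, a phosphatase of activated SMADs, had 33.8 to 44.2 CPM in late pregnancy (median 35.2) and 53.4 to 64.2 CPM in lactation (median 61.2) (log2 change 0.73, SE 0.06, adjusted p = 1.4e-09). LEMD3, a nuclear membrane protein that binds SMADs, rose by 0.53 and EP300, a coactivator of SMAD transcription, by 0.48 (adjusted p = 1.2e-06 and 1.5e-06), and all 3 were separate between states. The falls included TGIF1, a SMAD corepressor, from 5.97 ± 1.0 CPM to 2.11 ± 1.04 CPM (log2 change -1.43, SE 0.21, adjusted p = 6.2e-06), and ZEB1, a repressor of epithelial genes, from 8.43 ± 0.769 CPM to 4.89 ± 0.747 CPM (log2 change -0.79, SE 0.11, adjusted p = 2.2e-06). PMEPA1, lower, and SKIL, not called, counted both in this list and among the TGF-beta response genes.

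**Figure D4:**
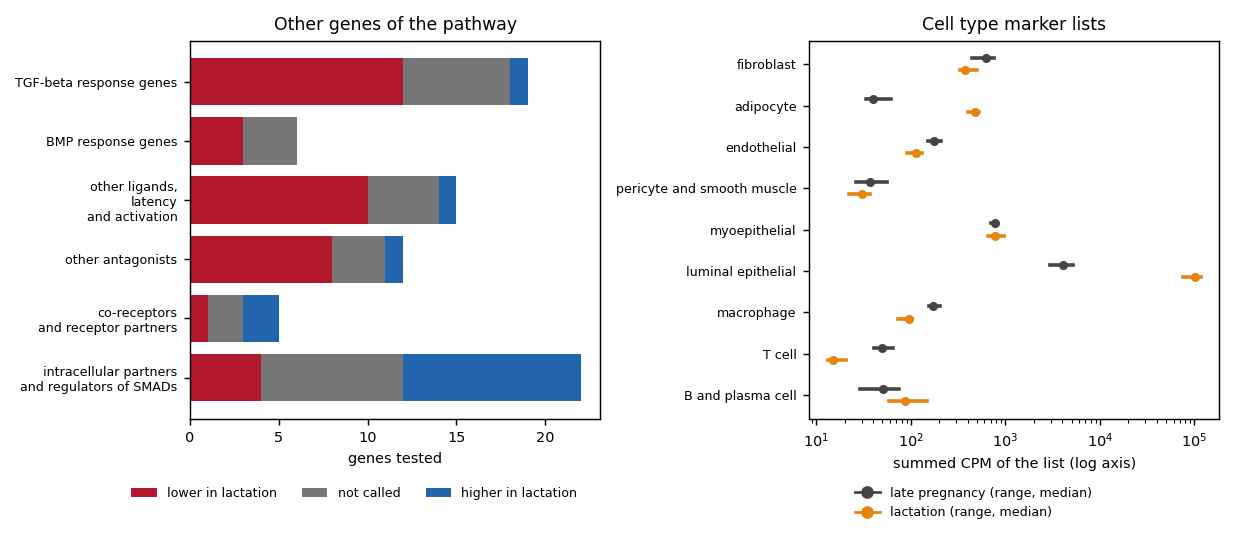
Left, numbers of genes tested (x axis, genes) in 6 lists of other pathway genes, split into lower in lactation, not called and higher under TMM scaling. Of all genes tested, 35.2% were lower and 33.1% higher. Right, summed CPM (log axis) of 9 cell type marker lists, with range (lines) and median (points) over 9 late pregnancy and 6 lactation libraries; T cell, macrophage and endothelial sums are separate and lower in lactation, the adipocyte sum rises through CIDEA, and the luminal sum is dominated by LALBA.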

How the data were processed

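Total RNA of pooled mammary biopsies was sequenced as 100 base paired-end reads on an Illumina instrument, and the authors mapped the reads and counted them per gene in CLC Genomics Workbench. The genome is Oar_v3.1 in the submitters' processing notes and version 3.2 in the study's methods, so coordinates are those of the deposited table. The deposited table holds, per library, read counts on exons and on whole genes, in total and placed uniquely, the RPKM values the authors computed from them, and quantile-normalized RPKM values. Its 24 columns of the authors' own comparisons hold fold changes and p-values and were not used.

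Counts on exons were tested, or counts on the whole gene for the 5583 features without an annotated transcript. edgeR 4.0.16 was used with TMM scaling, filterByExpr with state as group and glmQLFTest, with adjusted p values over all 13345 genes tested. The floor was 3 reads in every library of a state and covers counting error only. Values are given in full for called members of at least 1 CPM in either state, up to 4 per role by size of change, and otherwise where a result turns on them. For each list up to 3 falls and 3 rises were named by the same level and size. The members and lists were chosen with earlier results of these data known. Alternatives used DESeq2 1.42.0, limma 3.58.1 on log2(quantile-normalized RPKM + 1), other scalings and filters, covariates and fits without 1 library. Lanes are those in the column headers, and the labels say that each library ran on both lanes. No pair of libraries of the same state and dam group agreed within sampling noise (chi-square per degree of freedom 5.50 to 28.5), and other pairs were not compared. P-values measure the spread between pools.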

Additional observations from a re-analysis of the deposited data

Results flagged for a closer look

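In 8 of 80 sets of values, a gene in 1 state each, the highest or lowest library stood apart from the others by Dixon's gap ratio, the gap to the nearest library divided by the whole range, beyond its 95% critical value. Chance flags about 1 in 20 such groups. Lactation MM pool 1 was highest for TGFB3 at 3.83 CPM, next to 2.20 CPM (gap ratio 0.66), and for LTBP1 at 45.8 CPM, next to 32.4 CPM (0.692). Lactation MM pool 2 was highest for ACVR2B at 1.58 CPM, next to 0.659 CPM (0.655), and for SMAD9 at 1.13 CPM, next to 0.571 CPM (0.714). In late pregnancy, MM pool 3 was highest for LTBP3 at 12.1 CPM, next to 9.14 CPM (0.639). LM pool 2 was lowest for BMP1 at 19.2 CPM, next to 23.5 CPM (0.632), and LM pool 1 was lowest for TGFBR2 at 23.7 CPM, next to 26.9 CPM (0.511). HM pool 3 was lowest for ACVR2B at 0.148 CPM, next to 0.376 CPM (0.496). The calls for TGFB3, LTBP1, LTBP3, BMP1 and TGFBR2 held in every fit that left out 1 library, and ACVR2B and SMAD9 were called in none.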

How the results depend on the processing

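Counts of members called lower and higher were 17 and 10, and stayed within 1.5 times of these under every alternative except scaling by library size alone, which gave 39 lower and 1 higher on exons and 20 lower and 2 higher on introns. Leaving out 1 library gave 14 to 17 lower and 8 to 10 higher. With library size alone, all 27 called members stayed on their side of the median of all genes (-1.94), and the log2 changes that turned below 0 were -1.72 for LTBP2, -1.63 for LTBP4, -0.68 for BMP2, -1.88 for BMP6, -1.02 for GDF9, -1.21 for BMP1, -1.49 for ACVR1, -0.62 for ACVR1B, -0.56 for TGFBR1, -1.61 for ACVR2A, -1.67 for ACVR2B, -1.61 for BMPR2, -1.55 for TGFBR2, -1.79 for SMAD4, -1.72 for SMAD9, -1.75 for SMAD6 and -1.64 for SMURF1. Upper-quartile scaling moved the median of all genes to -0.18 and the share of lower calls over all genes from 51.6% to 63.7%, and turned BMP6 to -0.13, SMAD4 to -0.0259 and SMAD6 to -0.01. That share was 97.3% with library size alone.

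Every other change of sign was in a gene not called in either fit, and the cause was not tested. BMP6 was at -0.0268 with no filter and -0.35 in the libraries of lane 7, where ACVR2B was at -0.56, SMAD9 at -0.25 and SMAD3 at 0.0473. In lane 8 libraries LTBP2 was at -0.28 and SMURF2 at 0.15. With limma, SMAD3 was at 0.0693 and SMAD4 at -0.0022. SMURF2 was at 0.0002 with DESeq2, 0.0004 with uniquely placed reads and 0.002 with lane as covariate. The split by lane was chosen after seeing the data and gave 13 lower and 8 higher in lane 7 and 12 and 8 in lane 8. All LM libraries were in lane 8 and the HM lactation libraries in lane 7. Lane and dam group can therefore not be fully told apart, and each lane held fewer libraries. Over fits without 1 library the log2 change ran from -0.0299 to 0.27 for LTBP2, -0.22 to 0.14 for BMP6, -0.69 to 0.43 for ACVR2B, -0.13 to 0.0565 for SMAD3, -0.23 to 0.32 for SMAD9 and -0.0408 to 0.0671 for SMURF2. Leaving out lactation MM pool 2 turned BMP6, ACVR2B, SMAD3 and SMAD9.

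The labels do not say whether pool numbers pair the samples. The correlation of deviations between same-numbered pools of the 2 states ran from -0.14 to 0.23. Pools of different number were not compared, so these values cannot decide whether the pools were paired. A replicate block on the pool numbers gave 15 lower and 8 higher members and 8464 calls over all genes, against 9122. All 14 calls shared by exon and intron reads rest on the same libraries. Depth limited what could be tested: 19 members had too few reads, and 3 of the called members had at most 3 reads in every lactation library, where the size of the fall has only a lower bound. Requiring at least 10 reads in every library left 28 members, 14 lower and 7 higher, and no filter gave 56 members, 21 lower and 10 higher. LTBP4 was not called with upper-quartile scaling, either filter, limma, the block or the lane 7 libraries, ACVR2A with upper-quartile scaling, the block or either lane, and SMAD1 with the block or lane 7. SMAD2 was not called with DESeq2, the block or either lane, and TGFBR3 with dam group or lane as covariate or in lane 8. BMP2, BMP7, GDF5, ACVRL1 and ID1 were not called in lane 8, nor SMAD5 in lane 7. TGFB1 was called with limma, and TGFB2 with no filter, lane as covariate and in lane 8, both lower in lactation. BMPR2 and SMURF1 were called higher with limma.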

Other observations

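Several members are neighbours in the sheep genome. Of the 59 genes, 8 pairs lay within 1000 kb of each other on the deposited coordinates. GDF2 and GDF10 are 8.8 kb apart on chromosome 25 (41835757 to 41839844 and 41848675 to 41861586). GDF10 was called lower in lactation. GDF2 was not tested, and its late pregnancy mean did not exceed the lactation floor of 3 reads per library. ACVR1B and ACVRL1 are 37.9 kb apart on chromosome 3 (134169941 to 134190218 and 134228167 to 134237174), where ACVR1B rose under TMM scaling and ACVRL1 fell. SMAD6 and SMAD3, 277.6 kb apart on chromosome 7, were not called, and LTBP4 and TGFB1 are 590.5 kb apart on chromosome 14.

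Variation between libraries of a state differed among the members. Over 34 members of at least 1 CPM in both states, the coefficient of variation had a median of 15.2% in late pregnancy and 16.4% in lactation. It was lowest for BMPR1A in late pregnancy (4.95%) and SMAD2 in lactation (6.03%), and highest for FST in late pregnancy (40.8%) and GDF10 in lactation (59.4%).

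FSTL4 and FSTL5, with at most 3 reads on exons in any library, were called higher in lactation on reads outside exons under TMM scaling. Before scaling, FSTL4 had 61 to 150 such reads per library in late pregnancy and 30 to 72 in lactation. FSTL5 had 14 to 58 and 14 to 21. With so few exon reads, the calls do not show expression of the genes, and the source of these reads was not tested. The log2 changes were 0.29 for FSTL4 (adjusted p = 0.0462, edgeR) and 0.64 for FSTL5 (adjusted p = 0.0218, edgeR). Without lactation HM pool 1, the library with 12.9% of reads outside exons, they were 0.31 (adjusted p = 0.0504) and 0.48 (adjusted p = 0.084), past the threshold in neither case.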
